A study of Mus musculus with 12 samples.

Results

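The cytosolic ribosomal protein genes encode the proteins of the ribosome that translates nuclear mRNA. They were taken here as the genes of the deposited table named Rpsa, Rplp0, Rplp1 or Rplp2, or named Rpl or Rps followed by a number and at most one of the letters a, l or x. Pseudogenes marked -ps and the S6 kinase genes were left out, and at least 1 count over the 12 libraries was required. Of 41709 genes in the table, 80 had such a name and 78 had a count: 47 large subunit (Rpl and Rplp) and 31 small subunit (Rps and Rpsa) genes. Beside the names, the members were selected on this total, and the rule used no other measured value. The set itself was chosen with earlier results of these data known, so it was not picked independently of the values below. Rpl39l, a second copy of the large subunit gene Rpl39, was just inside the set with 6 counts. Rpl10l and Rpl3l, second copies of Rpl10 and Rpl3, were just outside it with 0 of 4332563 counts, which allows up to 0.692 CPM (counts-per-million of the total).

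Each ribosome joins a small subunit, which decodes the mRNA, to a large subunit, which forms the peptide bond, and each subunit is assembled in the nucleolus from ribosomal RNA and a fixed set of proteins. The mRNAs of these proteins are short and abundant in nearly every cell type, and most begin at the cap with a run of pyrimidines, the terminal oligopyrimidine (TOP) tract, through which mTOR signalling controls their translation. In the aortic valve leaflet they are made by all its cells, among them the interstitial cells that secrete the collagen-rich matrix and the endothelial cells that cover it.

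RNA was sequenced from aortic valve leaflets of mice of the strain C57BL/6J;129SvEv at 2 months of age, in 4 groups of 3 libraries named CTRL, ECKO, SMKO and DKO. In the study as known, the codes stand for controls and for deletion of Efemp2, which encodes the elastic fibre protein fibulin-4: ECKO in the endothelium, SMKO in smooth muscle and DKO in both. The labels give only the codes: neither the Cre driver, nor what the controls carry, nor which animals gave which library is stated. Whole leaflets were cut by laser from stained sections of fixed, frozen hearts, and cDNA was amplified before sequencing. Every value is therefore an average over the cells of a leaflet, and fewer cells of a type cannot be told apart from less RNA per cell. The libraries are described as biological triplicates without naming animals, so p-values measure the spread between these samples only.

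Libraries held 74827 (SMKO 3) to 615665 (ECKO 2) counts, and 6296 genes had enough counts to be tested. Efemp2, with 120 counts in all, checked the labels: its level in CPM, scaled between libraries, was 90.5, 38.0 and 71.6 in CTRL and 16.4 to 23.4 in the ECKO libraries. It was 7.30, 0 and 0 in SMKO, and DKO had no count, which allows up to 3.11 CPM. All 9 interstitial markers (Col1a1, Col3a1 and others, 22940 to 55003 CPM in sum) and all 9 endothelial markers (826 to 1758 CPM) had counts in every library. Macrophage markers summed highest in SMKO 2 (4350 CPM, against 924 to 2323 in the others) and cardiomyocyte markers in ECKO 2 (840 CPM). Genes encoded by mitochondria took 10.5% to 28.5% of counts.

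The members took 162985 counts, and 76 of 78 had a count in every library. Levels per length were read from the authors' TPM, which divides each count by a gene length. Over the 12 libraries the mean TPM was highest for Rplp1, an acidic protein of the large subunit stalk that recruits translation factors, at 3311 ± 780 (SD, n = 12). Rps29, a small zinc-binding protein of the small subunit, followed at 2831 ± 908, and Rpl41, the smallest ribosomal protein, at 2544 ± 427. Rps27, a zinc-binding small subunit protein, was at 1664 ± 712, and Rpl39, which lines the tunnel through which the new protein leaves, at 1660. The ranges of neighbours in this order overlapped: Rplp1 ran from 2182 to 4666, Rps29 from 1626 to 3966 and Rpl41 from 1569 to 3201. The median member was at 644 TPM.

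At the low end of the members tested stood Rpl10 (37.3 TPM), Rps15a (88.9), Rpl18 (159), Rpl22 (186) and Rps13 (220). Rpl10 is the protein added last to the large subunit, and its low value is taken up with its copies further on. For the other 4 the gene length behind the TPM was long: the length implied for Rps15a was 6000 bases, while its principal transcript in GENCODE has 640. Per kilobase of the principal transcript, Rps15a moved from rank 76 of 77 to rank 46, Rpl18 from 75 to 48, Rpl22 from 74 to 47 and Rps13 from 73 to 54. The implied length was over 2 times the principal transcript for 11 members and equal to it, within 0.5%, for 24. The highest member was 88.7 times the lowest by mean TPM and 77.5 times by counts per kilobase, and 37.2 and 13.7 times without Rpl10, Rpl9 and Rps27. The low end of the TPM order thus moved with the length used, while Rplp1 was first on both scales.

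**Figure D1:**
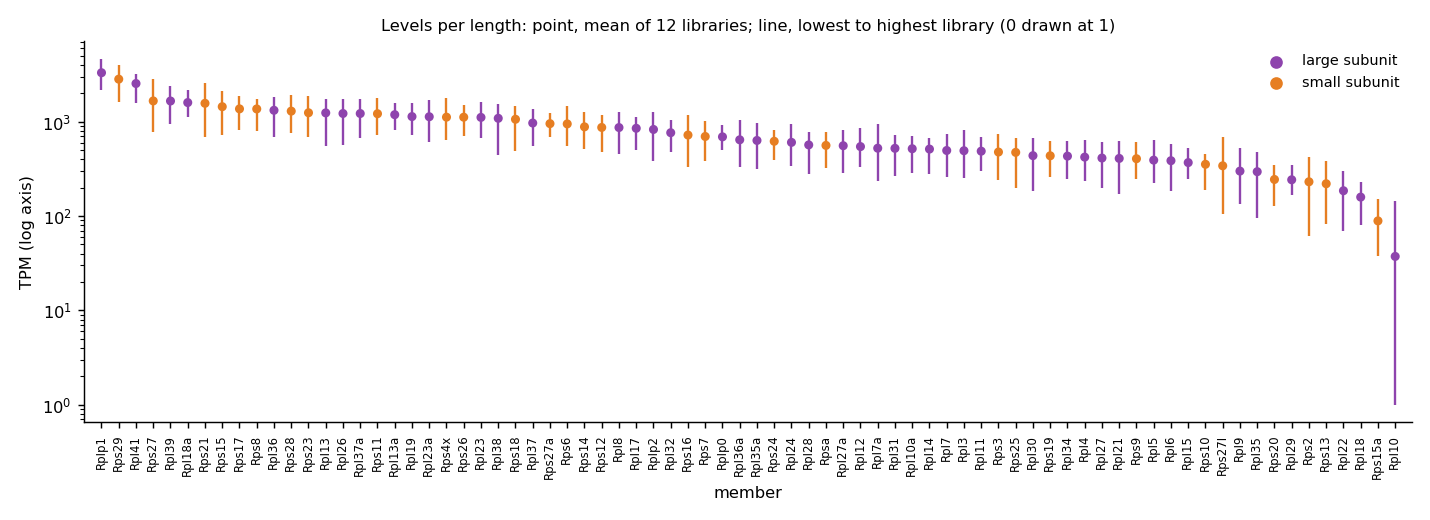
Mean TPM of 76 of the 77 members tested over the 12 libraries (points, log axis) with its lowest and highest library (lines), coloured by subunit and ordered by mean; a value of 0 is drawn at 1. Levels ran from 3311 for Rplp1 to 37.3 for Rpl10, and the ranges of neighbouring members overlap along most of the order.

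As a whole the members held between 2.65% and 4.48% of a library. They took 3.96%, 4.02% and 3.01% of counts in CTRL (3.66 ± 0.570, SD, n = 3) and 3.79%, 4.01% and 4.45% in ECKO (4.08 ± 0.338). The share was 4.48%, 2.65% and 3.45% in SMKO (3.53 ± 0.915) and 3.11%, 2.99% and 3.34% in DKO (3.15 ± 0.178). The 4 ranges overlap except that all 3 DKO libraries were under the ECKO libraries, and the highest and the lowest library were both SMKO. Mitochondrial genes move this share, since they take part of the total. With them left out of the total the share was 4.36% ± 0.222 in CTRL, 4.85% ± 0.230 in the ECKO libraries, 4.53% ± 0.927 in SMKO and 3.83% ± 0.452 in the DKO libraries, and the DKO libraries (3.92%, 3.34% and 4.22%) were again under those of ECKO (4.79%, 4.66% and 5.11%).

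On the scale used for the tests (CPM after TMM scaling, which sets the bulk of genes equal between libraries), the 77 members tested deviated on average from their own log2 mean by -0.04, -0.01 and -0.04 in CTRL and by 0.17, 0.08 and 0.15 in ECKO. The averages were 0.19, 0.00 and -0.08 in SMKO and -0.05, -0.35 and -0.01 in DKO. One library stood apart: in DKO 2, 73 of 77 members were below their own mean, against 39 in each of the other DKO libraries. At the other end, 7 members were below their mean in SMKO 1 and 8 in ECKO 3. DKO 2 also had the smallest mitochondrial share (10.5%; 20.7% and 21.0% in the other DKO libraries). Its smooth muscle markers had the highest sum, 358 CPM, with Acta2, Tagln and Myh11 counted and Cnn1 and Des at 0 (3 of 5 markers). That sum ran from 231 to 284 CPM in CTRL, from 274 to 319 in ECKO, from 148 to 247 in SMKO and from 311 to 358 in DKO. The part of either in the low members of DKO 2 was not tested.

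**Figure D2:**
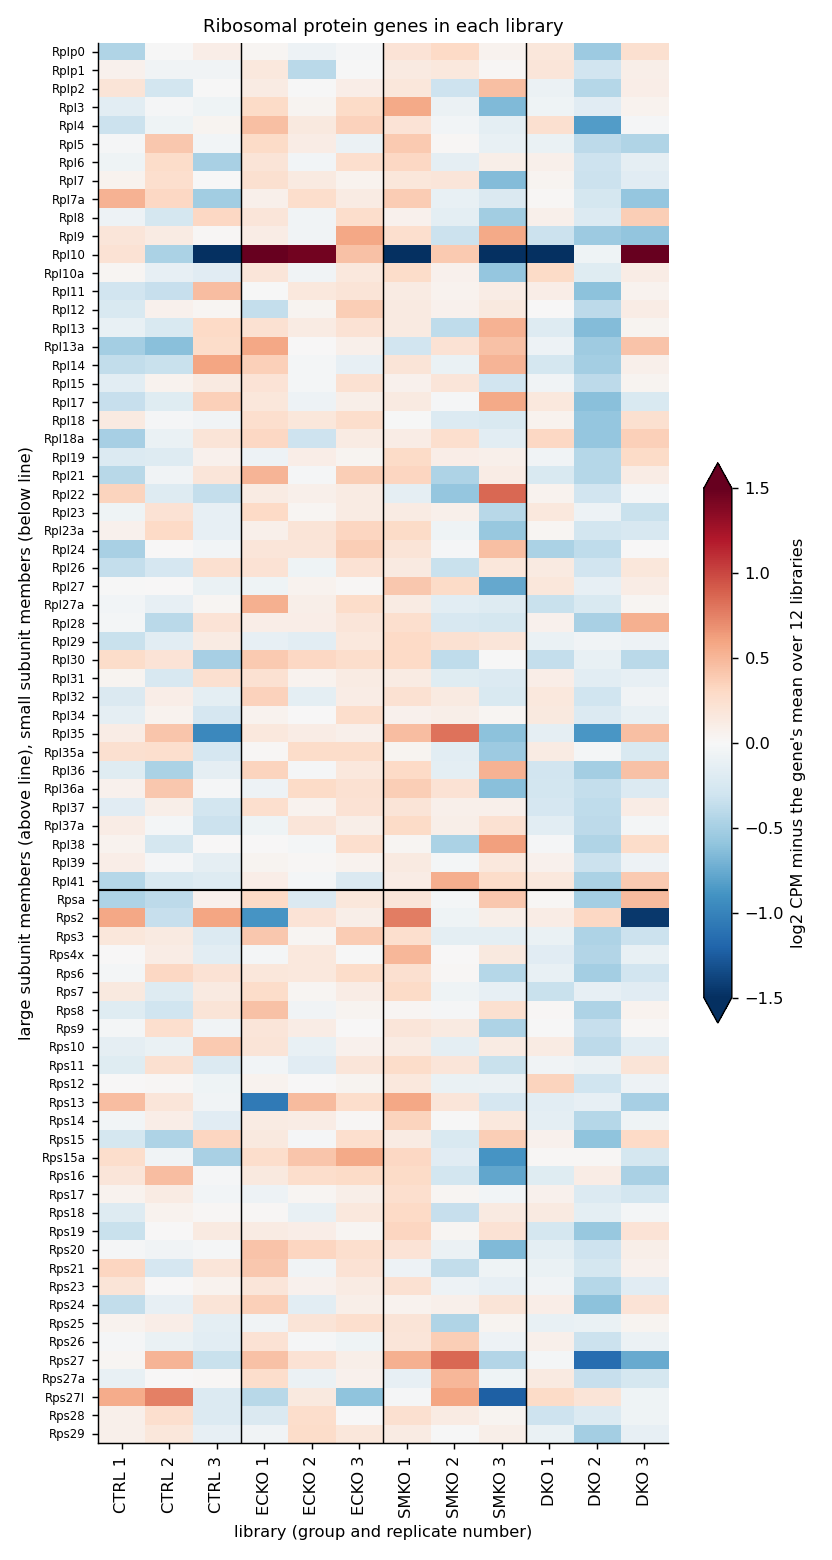
Log2 CPM of 76 of the 77 members tested (one per line) minus its mean over the 12 libraries (columns, by group), with colours limited to 1.5 in either direction. The column of DKO 2 is low for most members (73 of all 77), while single members such as Rpl10 and Rps27 vary more than the set.

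**Figure D3:**
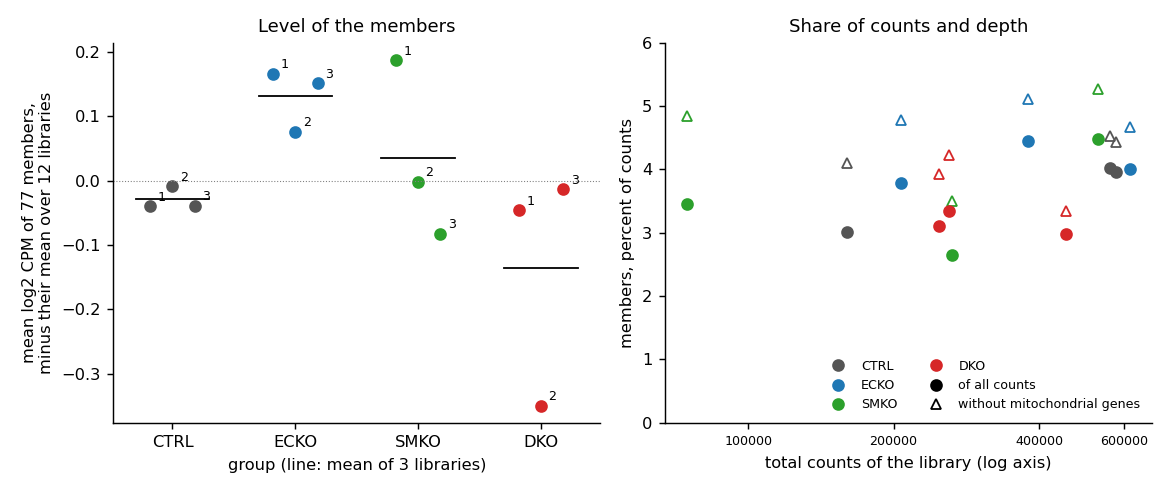
Left, the mean deviation of the 77 members (log2 CPM) in each library by group; right, the members' share of counts in percent against total counts on a log axis, of all counts (filled) and without mitochondrial genes (open triangles). DKO 2 lies at -0.35 while the other DKO libraries lie at -0.05 and -0.01.

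No member passed an adjusted p of 0.05 (edgeR's quasi-likelihood test, Benjamini-Hochberg over all 6296 genes) in any of the 6 pairs of groups, in the test over the 4 groups, or in the interaction DKO - ECKO - SMKO + CTRL. DESeq2 and limma-voom called none in these 8 comparisons either, and the share of all genes called with them is not given here. With edgeR, the whole table had 0.492% of genes called for DKO against CTRL. It was 0.572% for DKO against ECKO, 0% for each of the other 4 pairs, 0.302% for the test over the 4 groups and 0.0318% for the interaction. The smallest adjusted p of a member in these comparisons was 0.276, for Rpl9 in DKO against ECKO. The median standard error of a member's log2 fold change was 0.26. Differences several times that size did not pass either: Rps27 was at -1.03 in DKO against SMKO (edgeR adjusted p = 0.505). At this depth and number of libraries, the absence of a call therefore does not exclude changes of that size.

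The values of the 77 members in DKO lay on average below those of the other groups, by less than the test could call and with weight on 1 library. Against CTRL, 53 of 77 members had a fitted log2 fold change below 0 (48.3% of all genes tested did), with a median of -0.10 against 0.02 for all genes. Against ECKO, 70 were below 0 (48.2% of all genes) with a median of -0.26 and quartiles of -0.37 and -0.15, and against SMKO 65 were (48.1%) with a median of -0.20. The median of all genes was 0.02 in both. Without DKO 2 the medians were 0.01 against CTRL, with 37 members below 0, -0.14 against ECKO with 57, and -0.06 against SMKO with 55. The 3 comparisons share the DKO libraries. The members also varied together, with a median r of 0.55 to the mean of the other members. Counts of members by direction, here and below, are therefore not counts of separate results. At an unadjusted p under 0.05, 2 members were lower in DKO than in CTRL (5.15% of all genes were), 5 were lower than in ECKO (4.76%) and 2 lower than in SMKO (2.97%), and none was higher (6.56%, 6.05% and 3.34% of all genes).

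**Figure D4:**
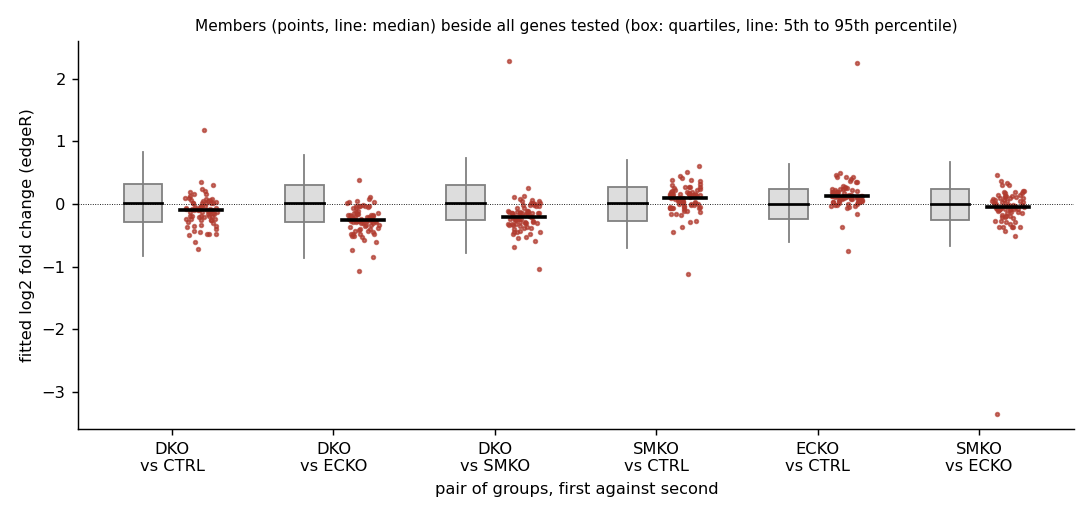
Log2 fold changes of the 77 members (points, with their median) for each of the 6 pairs of groups, beside all 6296 genes tested (box, quartiles; whiskers, 5th to 95th percentile). The members' medians run from -0.26 (DKO against ECKO) to 0.13 (ECKO against CTRL); in DKO against ECKO 70 of 77 points lie below 0.

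Both subunits had the same direction. In DKO against CTRL the fitted value was below 0 for 28 of 46 large subunit members (median -0.08) and 25 of 31 small subunit members (median -0.19). Against ECKO it was below 0 for 41 and 29 (medians -0.26 and -0.27), and against SMKO for 37 and 28 (medians -0.20 and -0.24). The difference between the subunits was not tested.

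Among small subunit proteins, Rps27 had the smallest p in DKO against SMKO. Its CPM was 594, 834 and 461 in CTRL, 789, 678 and 620 in the ECKO libraries, 844, 1065 and 428 in SMKO and 572, 260 and 342 in the DKO libraries. All DKO libraries were below all ECKO libraries, while DKO 1 overlapped CTRL and SMKO through CTRL 3 and SMKO 3. The log2 difference was -0.71 (SE 0.32, edgeR adjusted p = 0.372) from CTRL, -0.84 (SE 0.32, adjusted p = 0.307) from ECKO and -1.03 (SE 0.32, adjusted p = 0.505) from SMKO, none of which passed the test. The difference from CTRL was -1.09 without DKO 1 and -0.47 without CTRL 2.

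Rps3, which shapes the channel where mRNA enters the small subunit, was at 607, 594 and 469 CPM in CTRL, 718, 553 and 707 in the ECKO libraries, 643, 486 and 488 in SMKO and 504, 390 and 431 in the DKO libraries. DKO was below every ECKO library (log2 -0.58, edgeR adjusted p = 0.408) and overlapped CTRL and SMKO. Rps6, the substrate of the S6 kinases downstream of mTOR, was at 488, 617 and 580 CPM in CTRL, 559, 554 and 603 in the ECKO libraries, 590, 502 and 369 in SMKO and 460, 347 and 408 in the DKO libraries. Its DKO libraries were all below those of CTRL (log2 -0.47, edgeR adjusted p = 0.498) and ECKO. Rps4x, an X-linked small subunit gene, was at 930, 657 and 724 CPM in SMKO and 582, 482 and 608 in DKO without overlap (log2 -0.48, edgeR adjusted p = 0.841). None of the 3 passed the test.

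Among large subunit proteins Rpl9, which lies near the site where translation factors bind, was at 543, 519 and 485 CPM in CTRL, 515, 462 and 719 in the ECKO libraries, 570, 381 and 709 in SMKO and 381, 326 and 315 in the DKO libraries. Every DKO library was below every CTRL and ECKO library, and DKO 1 met SMKO 2 at 381. The log2 difference was -0.60 (SE 0.27, edgeR adjusted p = 0.369) from CTRL, -0.73 (SE 0.27, adjusted p = 0.276) from ECKO and -0.68 (SE 0.28, adjusted p = 0.674) from SMKO. Rpl30, a large subunit protein at the face toward the small subunit, was at 373, 353 and 341 CPM in ECKO and 220, 262 and 213 in DKO (log2 -0.61, edgeR adjusted p = 0.381). CTRL 3 (199 CPM) was below all of these DKO values. Rpl24, which reaches across to the small subunit, was at 280, 281 and 321 CPM in ECKO and 176, 188 and 249 in DKO (log2 -0.53, edgeR adjusted p = 0.439), with CTRL at 175, 248 and 239 on the DKO level. Rpl36a, at the site through which tRNA leaves, was at 193, 247 and 183 CPM in CTRL and 152, 143 and 160 in DKO without overlap (log2 -0.48, edgeR adjusted p = 0.473). Rpl7a, a large subunit protein, was at a log2 difference of -0.48 from CTRL (edgeR adjusted p = 0.515), with overlap, and at -0.29 without CTRL 1. Against SMKO, Rpl24 was at -0.48 (edgeR adjusted p = 0.841) and Rps13 at -0.53 (adjusted p = 0.860), both with overlap. Without SMKO 1 that of Rps13 was -0.29. No member named here passed the test.

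Counted library by library, 23 of 77 members (29.9%) had all 3 DKO values below all 3 ECKO values, where 8.93% of all genes tested did. They included Rpl5, Rpl7, Rpl9, Rps3, Rps6, Rps7, Rps20, Rps23 and Rps29. For DKO under CTRL the count was 6 members (7.79%; 8.04% of all genes): Rpl36a, Rpl5, Rpl9, Rps13, Rps23 and Rps6. For DKO under SMKO it was 6 as well (3.84% of all genes): Rpl29, Rpl37a, Rps14, Rps28, Rps29 and Rps4x. No member had DKO above all libraries of the other group in any of these pairs (9.74% of all genes did for CTRL, 9.9% for ECKO and 5.69% for SMKO). The share against CTRL was near that of all genes. Members varied together over the libraries, so the 23 members against ECKO are not 23 separate results. Marker sums separated DKO from ECKO too. Endothelial markers (9 of 9 counted in each library) summed to 826 to 1189 CPM in DKO and 1310 to 1576 in ECKO, with CTRL at 1056 to 1185 and SMKO at 1027 to 1758. Melanocyte markers summed to 411 to 973 CPM in DKO (6 of 6 counted) and 65.8 to 109 in ECKO, with CTRL at 215 to 724 and SMKO at 207 to 1082. In ECKO 1 only Dct and Mitf of the 6 were counted, and Tyr was at 0 in ECKO 3 as well. The part of either marker group in the members' values was not tested.

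Functional subgroups inside the set gave the following. The stalk proteins were nearly level: Rplp0 was at 499, 682 and 732 CPM in CTRL and 768, 465 and 808 in DKO, Rplp1 at 1064, 984 and 978 in CTRL and 1154, 833 and 1078 in DKO, and Rplp2 at 604, 435 and 525 in CTRL and 494, 390 and 564 in DKO. In each, DKO 2 was the lowest of the DKO libraries and the groups overlapped. Their log2 differences in DKO ran from -0.25 (Rplp2 against SMKO) to 0.09 (Rplp0 against CTRL). Rpl5 and Rpl11 carry the smallest ribosomal RNA into the large subunit and, when free, bind the p53 regulator Mdm2. Rpl5 was at 519, 695 and 509 CPM in CTRL and 489, 399 and 382 in DKO without overlap (log2 -0.45, edgeR adjusted p = 0.530), while Rpl11 was at 234, 225 and 398 in CTRL and 308, 185 and 297 in DKO (log2 -0.08). The 18 members whose human counterparts are mutated in Diamond-Blackfan anaemia had medians of -0.15 against CTRL (15 of 18 below 0), -0.26 against ECKO (17) and -0.24 against SMKO (14). The 8 proteins of the exit tunnel and its rim had medians of -0.09, -0.20 and -0.17, with 8 of 8 below 0 against ECKO. No member of these subgroups was called.

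Several of these genes cannot be read apart from near-identical copies, and Rps27, Rpl9 and Rpl10 are shown as examples. Rps27 (GRCm38, chr3:90212522-90213651, minus strand, 4 exons) has a copy without introns, Rps27rt (chr9:114982366-114982739, minus strand, 1 exon, annotated as protein coding). Over 341 aligned transcript bases they had 0 mismatches, so no read that lies inside the aligned bases tells them apart. Their first 75 coding bases, the length of 1 read, are shown for this reason, all in lower case because no base differs.
Rps27: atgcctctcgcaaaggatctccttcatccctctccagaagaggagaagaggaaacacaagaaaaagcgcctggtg
Rps27rt: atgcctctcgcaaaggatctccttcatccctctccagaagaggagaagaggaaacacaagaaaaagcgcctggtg

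Rpl9 (chr5:65388364-65391444, minus strand, 8 exons) and Rpl9-ps6 (chr19:32465865-32466578, minus strand, 1 exon) differed at 1 of 692 aligned bases, G266A, counted from the first coding base of Rpl9. Within the alignment only a read that covers this base can separate them. The 41 bases around it are shown, and the capital marks the base that differs.
Rpl9: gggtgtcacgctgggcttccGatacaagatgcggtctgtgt
Rpl9-ps6: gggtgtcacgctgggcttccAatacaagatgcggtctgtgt

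Rpl10 (chrX:74270812-74273135, plus strand, 7 exons) and Rpl10-ps3 (chr9:50344201-50344968, minus strand, 1 exon) had 0 mismatches over 740 bases. Of all 75-base windows of the principal transcripts, 98.5% in Rps27 and 91.9% in Rpl10 were also found in another gene of GENCODE. Of the 78 members, 38 had 50% or more of their windows in another gene and 12 had 80% or more. Rpl35 (89.2%), a protein at the tunnel exit, and Rps12 (82.5%), a small subunit protein, were among the latter. So were Rpl5 (92.5%), Rpl9 (91.3%), Rpl36a (84.6%), Rps6 (84.1%) and Rpl24 (80.9%), while Rpl13a had 56.3%. The values given for these members carry the same limit. The sources used here do not say how reads with several matches were counted.

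The split between gene and copy varied widely between libraries of a group. Rps27rt was at 312, 395 and 501 CPM in CTRL, 340, 355 and 494 in the ECKO libraries, 486, 215 and 827 in SMKO and 254, 234 and 555 in the DKO libraries. Rps27 took from 34.1% (SMKO 3) to 83.2% (SMKO 2) of the counts of the pair. CTRL 3, ECKO 3 and SMKO 3 were the lowest of their groups for Rps27 and the highest for Rps27rt, and DKO 3 was the highest for Rps27rt. Summed, the pair was at 1032 ± 173 CPM (SD, n = 3) in CTRL, 1092 ± 52.1 in the ECKO libraries, 1289 ± 37.6 in SMKO and 739 ± 215 in the DKO libraries. All DKO sums were below all others, with log2 differences of -0.49 (edgeR adjusted p = 0.525) from CTRL, -0.57 (adjusted p = 0.467) from ECKO and -0.81 (adjusted p = 0.542) from SMKO.

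Rpl9-ps6 was at 211, 111 and 159 CPM in CTRL, 351, 276 and 148 in the ECKO libraries, 162, 127 and 118 in SMKO and 73.3, 228 and 253 in the DKO libraries. Rpl9 took 55.5% to 85.7% of the pair. Summed, Rpl9 was at 676 ± 67.4 CPM in CTRL, 824 ± 73.8 in the ECKO libraries, 689 ± 164 in SMKO and 526 ± 61.8 in the DKO libraries, and its log2 difference from CTRL was -0.36 in place of -0.60, from SMKO -0.38 in place of -0.68, and from ECKO -0.64 in place of -0.73 (edgeR adjusted p = 0.341). Rpl10 itself had 84 counts and its copy 8024. Rpl10 was at 14.0, 6.62 and 0 CPM in CTRL, 93.2, 40.6 and 17.3 in the ECKO libraries, 0, 16.6 and 0 in SMKO and 0, 10.7 and 57.7 in the DKO libraries, never more than 3.91% of the pair. The copy was at 1723, 2030 and 2568 CPM in CTRL, 2291, 1696 and 1841 in the ECKO libraries, 2009, 2423 and 1389 in SMKO and 1809, 1520 and 1793 in the DKO libraries, and its groups overlapped. The summing was chosen after the values had been seen.

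**Figure D5:**
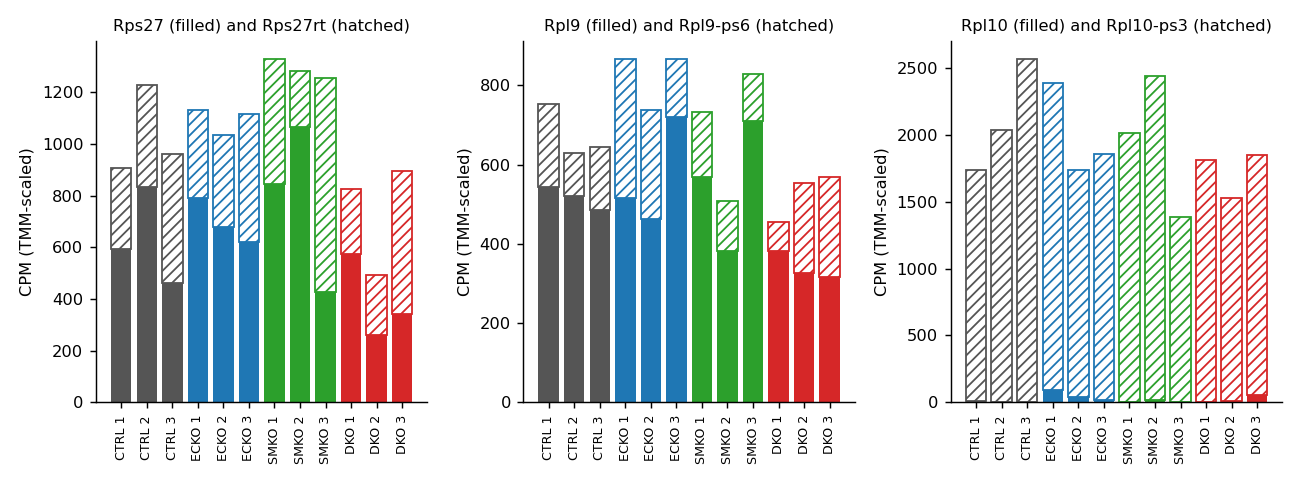
CPM of Rps27, Rpl9 and Rpl10 (lower part of each bar) and of their near-identical copies Rps27rt, Rpl9-ps6 and Rpl10-ps3 (upper part) in each of the 12 libraries, stacked from 0. The split within a bar varies between libraries of a group, and nearly all counts of the Rpl10 pair were assigned to the copy.

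The knockouts of a single cell type were each set against the controls. In ECKO, 67 of 77 members had a log2 fold change above 0 (49.8% of all genes), with a median of 0.13 against 0.00 for all genes, about the spread of 0.12 between libraries of a group in the members' mean. Without ECKO 1 the median was 0.081. The marker sums given above also separated ECKO from CTRL: endothelial markers were higher in every ECKO library (1310 to 1576 against 1056 to 1185 CPM) and melanocyte markers lower (65.8 to 109 against 215 to 724 CPM). Their part in the members' values was not tested. At an unadjusted p under 0.05, 1 was higher (2.14% of all genes) and 1 lower (2.14%). The higher one was Rpl10 (log2 2.25, SE 0.92, edgeR adjusted p = 0.998). Summed with its copy its log2 difference was -0.08, so the sign rested on the split between both. The lower one was Rps27l, a copy of Rps27 that p53 can induce, at 167, 192 and 95.4 CPM in CTRL and 82.2, 123 and 71.7 in ECKO (log2 -0.75, SE 0.29, edgeR adjusted p = 0.998). Its groups overlapped through CTRL 3.

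All 3 ECKO libraries were above all 3 CTRL libraries for 9 members (11.7%; 5.8% of all genes): Rpl10, Rpl18, Rpl24, Rpl27a, Rpl3, Rpl36, Rpl4, Rps15a and Rps20. Rps20, in the head of the small subunit, was at 532, 521 and 533 CPM in CTRL and 729, 675 and 645 in ECKO. Rpl4, a protein of the exit tunnel wall, was at 313, 374 and 406 CPM in CTRL and 537, 436 and 499 in ECKO (log2 0.44, edgeR adjusted p = 0.998). Rps15a, a small subunit protein, was at 367, 293 and 215 CPM in CTRL and 367, 409 and 452 in ECKO (log2 0.46, edgeR adjusted p = 0.998). Rpl24 was at a log2 difference of 0.43 (edgeR adjusted p = 0.998), and at 0.27 without CTRL 1. No member had all ECKO libraries below CTRL (5.89% of all genes).

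In SMKO, 52 members had a fitted value above 0 against CTRL (50.7% of all genes) with a median of 0.10 against 0.01. Without SMKO 1 the median was 0.00, with 38 members below 0. Scaled by library totals alone, that median was -0.08 and the median of all genes -0.21. At an unadjusted p under 0.05, 1 was higher (2.62% of all genes) and none lower (2.84%). It was Rpl41, at 842, 968 and 994 CPM in CTRL, 1216, 1113 and 978 in the ECKO libraries, 1233, 1662 and 1374 in SMKO and 1266, 818 and 1500 in the DKO libraries. All SMKO libraries were above all CTRL libraries (log2 0.61, SE 0.29, edgeR adjusted p = 0.885). Rpl29, a basic large subunit protein, was at 133, 151 and 183 CPM in CTRL and 208, 199 and 192 in SMKO (log2 0.42, edgeR adjusted p = 0.888). With Rpl12 and Rpl19 these made 4 members with SMKO above CTRL (5.19%; 4.24% of all genes), a share near that of all genes, and none lay below (6.26%). Rpsa, which is also known as a laminin receptor, was at 658, 686 and 946 CPM in CTRL and 1032, 889 and 1196 in SMKO (log2 0.45, edgeR adjusted p = 0.920), with overlap. Rpl36 (log2 0.51, edgeR adjusted p = 0.888) and Rpl24 (log2 0.37, adjusted p = 0.931), both of the large subunit, overlapped as well; without CTRL 1 the latter was 0.22.

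Between SMKO and ECKO 46 members were below 0 (50.4% of all genes), with a median of -0.04 (all genes 0.00). At an unadjusted p under 0.05, none was higher (2.06% of all genes) and 1 lower (1.79%), Rpl10 (log2 -3.36, SE 1.25, edgeR adjusted p = 1.00; -1.90 without SMKO 1). SMKO lay above ECKO in all libraries for Rpl29, Rpl41 and Rplp0 (3.94% of all genes did) and below for Rpl10, Rpl18, Rps20 and Rps21 (5.35%). Next by p came Rps15a (log2 -0.52), Rps20 (-0.44), Rpl27a (-0.36) and Rpl35a (-0.36), each with an edgeR adjusted p of 1.00. Without SMKO 3, Rps15a was at -0.32 and Rps20 at -0.27, and without SMKO 1 at -0.85 and -0.65. In the test over the 4 groups Rps27 (adjusted p = 0.458), Rpl10 (0.536) and Rpl9 (0.547) had an unadjusted p under 0.05 with edgeR, as did 8.97% of all genes, and Rpl24 and Rps27l came next (adjusted p = 0.688 for both). The interaction asks whether DKO differs from the sum of the single knockouts. Its fitted value was below 0 for 73 of 77 members (48.2% of all genes), with a median of -0.34 against 0.03 for all genes. The median was -0.26 without DKO 2, with 66 members below 0, and -0.26 without SMKO 1, with 63. As the members varied together, these counts are not of separate results. With edgeR, 3 members had an unadjusted p under 0.05 below 0 (3.24% of all genes): Rps27 (log2 -1.16, SE 0.45, adjusted p = 0.665), Rpl24 (-0.91, SE 0.36, adjusted p = 0.665) and Rpl9 (-0.81, SE 0.38, adjusted p = 0.795). None had it above 0 (2.94% of all genes). Rpl36 (-0.75, edgeR adjusted p = 0.816) and Rps27l (0.82, adjusted p = 0.826) came next.

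Library depth was read as a further axis, since totals differed widely within groups. Over the 12 libraries the members' share of counts went with the log10 of the total at r = 0.48 (rho 0.49), and at 0.52 with group means subtracted. The points share their groups and their totals, which stand on both axes. With mitochondrial genes left out of the total, r was 0.04 (rho 0.08). All 13 mitochondrial genes tested had a negative depth slope, with a median log2 change of -2.03 per 10-fold depth, within groups.

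For single members the depth slope, fitted beside the groups, had a median of -0.02 per 10-fold depth (all genes 0.04), and 39 of 77 were below 0 (47.4% of all genes). The sign of this median depended on the setting: it was 0.50 when counts were scaled by library totals alone (all genes 0.67), 0.24 with no low-count filter (all genes 0.14) and 0.12 without ECKO 1. With TMM and the filter the slope was below 0 for 29 of 46 large subunit members (median -0.09) and above 0 for 21 of 31 small subunit members (median 0.15), a difference that was not tested. No member was called with edgeR or limma-voom (0.0159% of all genes were with edgeR), and DESeq2 called 1, Rpl13a. The share of all genes called with DESeq2 is not given here. At an unadjusted p under 0.05 with edgeR, 5 were above 0 (3.92% of all genes): Rps13, Rps15a, Rps16, Rps27l and Rpl7a. The 3 below 0 (4.15%) were Rpl13a, Rpl14 and Rpl17.

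Rpl13a, a large subunit protein that can leave the ribosome and repress inflammatory mRNAs, was at 608, 561 and 1050 CPM in CTRL, 1304, 876 and 919 in the ECKO libraries, 712, 1010 and 1182 in SMKO and 826, 599 and 1172 in the DKO libraries. The shallowest library was the highest in CTRL (CTRL 3), ECKO (ECKO 1) and SMKO (SMKO 3). Its slope was -1.21 (SE 0.39, edgeR adjusted p = 0.373; DESeq2 -1.25, adjusted p = 0.0199). Rps13, a small subunit protein at the subunit interface, was at 343, 280 and 239 CPM in CTRL, 115, 345 and 297 in the ECKO libraries, 373, 282 and 207 in SMKO and 220, 226 and 173 in the DKO libraries. Here CTRL 3, ECKO 1 and SMKO 3 were the lowest of their groups (slope 1.25, SE 0.41, edgeR adjusted p = 0.390). Rps15a had a slope of 1.06 (edgeR adjusted p = 0.486), Rpl14, a large subunit protein, -0.94 (adjusted p = 0.495; -0.57 without CTRL 3), and Rps16, which touches the tRNA being extended, 0.93 (adjusted p = 0.519). Scaled by library totals alone, which keeps the mitochondrial share in the total, 4 members were called: Rps13 (1.81, edgeR adjusted p = 0.0331), Rps15a (1.65, adjusted p = 0.0333), Rps16 (1.49, adjusted p = 0.0402) and Rps27l. In this setting the median slope of all genes was above that of the members. The share of all genes called in it is not given here, so the count is not read as a result about the members.

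The balance of the subunits was close between groups. Large subunit counts were 1.32, 1.33 and 1.44 times small subunit counts in CTRL (1.36 ± 0.0642, SD, n = 3), 1.46, 1.36 and 1.44 times in the ECKO libraries (1.42 ± 0.0546), 1.37, 1.42 and 1.51 times in SMKO (1.43 ± 0.0724) and 1.50, 1.40 and 1.57 times in DKO (1.49 ± 0.0830). The groups overlapped. In every group the deepest library had the lowest ratio (CTRL 1, ECKO 2, SMKO 1 and DKO 2). In CTRL, ECKO and SMKO the shallowest library had the highest (CTRL 3, ECKO 1 and SMKO 3), while in DKO it did not. The part of depth in this ratio was not tested.

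The members varied together. Each member's log2 CPM was correlated with the mean of the other members over the 12 libraries, and the median r was 0.55 (0.47 within groups). It was above 0.5 for 45 of 77 members, and for 3.73% of other genes against the members' mean, whose median r was 0.00. These points share libraries, and the values are a description. DKO 2, where 73 of 77 members were below their own mean, is among the 12 points. Values of r without that library are not given here. Among the closest were Rpl4 (0.89), Rps23 at the decoding site (0.85) and Rps3 (0.82). Rps27l (-0.22) and Rps2 (-0.18), a protein at the mRNA entry channel, were the 2 below 0. Rps2 was at 253, 131 and 254 CPM in CTRL, 87.7, 194 and 178 in the ECKO libraries, 289, 160 and 177 in SMKO and 181, 209 and 57.7 in the DKO libraries, with more spread within groups than between them. Outside the members the most alike patterns over the 12 libraries were those of Arhgef2 (0.87), Selenbp1 (0.82), Clip1 (0.81), Gas6 (0.80), Slc45a4 (0.80), Pkd1 (0.78), Ccdc80 (0.78), Gtf3c2 (0.78), Inmt (0.76) and Cgnl1 (0.75). These were picked as the highest of 6219 genes over only 12 libraries, where values this high can arise from the search alone. Whether they exceed that was not tested.

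The start of the transcript, where the TOP tract lies, was read from RefSeq (GRCm38.p6), whose table held 58 of the 78 members and not the other 20. A run was searched as a C followed by at least 4 further pyrimidines (C or T) on the transcribed strand. Pyrimidines could also stand before that C, so the whole tract may begin further upstream. Such a C stood at the annotated start in 13 of 58 members (22.4%), against 3.01% of all 27025 genes, and on the opposite strand in 3.45% against 4.07%. Within 2 bases of the start it was found in 21 members (36.2%; 10.6% of all genes) and within 5 bases in 28 (48.3%; 21.2%). These lines show members described above, 30 bases each with 15 before the annotated start. Capitals mark the nearest such C within 2 bases of it and the pyrimidines after that C. The first 6 have such a run and the last 3 have none. In Rpl14 and Rplp2, among others, further pyrimidines stand directly before the capitals. The run of Rpl13a goes on past the last base shown.
Rps27 (chr3:90213634-90213663, minus strand): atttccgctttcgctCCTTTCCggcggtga
Rps6 (chr4:86857353-86857382, minus strand): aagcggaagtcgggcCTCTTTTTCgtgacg
Rps15a (chr7:118116133-118116162, minus strand): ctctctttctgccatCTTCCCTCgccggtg
Rplp2 (chr7:141447636-141447665, plus strand): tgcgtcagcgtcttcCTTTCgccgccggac
Rpl14 (chr9:120571502-120571531, plus strand): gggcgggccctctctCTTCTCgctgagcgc
Rpl13a (chr7:45128731-45128760, minus strand): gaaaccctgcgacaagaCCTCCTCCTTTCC
Rpl9 (chr5:65391417-65391446, minus strand): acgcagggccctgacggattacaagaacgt
Rpl24 (chr16:55966260-55966289, plus strand): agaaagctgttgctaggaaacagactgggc
Rps13 (chr7:116334176-116334205, minus strand): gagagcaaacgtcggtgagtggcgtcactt
Rps15a and Rps13, whose depth slopes were both positive without passing the test, differ in this run, as do Rps27 and Rpl9, the members with the smallest p in DKO against each other group. Whether the run goes with the members' values was not tested. An annotated start can differ from the start used in the leaflet, which was not measured.

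Second copies of members, under names of their own, were also read. Of the windows of the principal transcripts, 58.6% in Rpl22l1 and 61.3% in Rpl36al were also found in another gene of GENCODE. The values of Rpl22l1 and Rpl36al therefore carry the limit given above for the members. The share was 3.87% in Rpl7l1 and 0% in Rpl39l. Rpl22l1, the paralogue of Rpl22, both RNA-binding proteins of the large subunit, was at 151, 159 and 55.7 CPM in CTRL, 93.2, 150 and 129 in the ECKO libraries, 144, 105 and 103 in SMKO and 73.3, 78.9 and 57.7 in the DKO libraries. DKO was below every ECKO and SMKO library and above only CTRL 3 in CTRL (log2 -0.91 from CTRL, SE 0.30, edgeR adjusted p = 0.198). Rpl22 was at 285, 197 and 175 CPM in CTRL and 235, 183 and 222 in DKO, with overlap. Rpl36al, the paralogue of Rpl36a, was at 129, 147 and 167 CPM in CTRL and 171, 136 and 160 in DKO. Rpl39l had no count in CTRL (up to 2.31 CPM) or SMKO (up to 3.45), and 0, 3.12 and 2.47 CPM in ECKO and 4.89, 2.13 and 4.44 in DKO, each of 1 or 2 counts. It was the 1 member too low to test. Rpl7l1, a relative of Rpl7, was at 39.0, 31.4 and 55.7 CPM in CTRL and 24.4, 38.4 and 35.5 in DKO, with overlap.

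Some subunit proteins have names that the rule does not match. Rack1, a signalling scaffold on the small subunit, was at 293, 337 and 270 CPM in CTRL and 293, 243 and 222 in DKO. Fau, which encodes a small subunit protein fused to a ubiquitin-like one, was at 395, 473 and 708 in CTRL and 533, 326 and 519 in DKO. Both overlapped between the groups. Rps3a1, a small subunit protein, was at 381, 417 and 358 in CTRL and 215, 288 and 324 in DKO without overlap (log2 -0.48, edgeR adjusted p = 0.481).

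Other genes of translation were read as lists, and no gene of any of them was called in DKO against CTRL, ECKO or SMKO with edgeR. The 36 of 41 initiation factor genes tested had medians of -0.01, 0.04 and 0.19 in these comparisons, with 2 higher and 1 lower at an unadjusted p under 0.05 against CTRL, where 6.56% and 5.15% of all genes were. Eif6, which keeps free large subunits from joining, was among the higher ones (log2 0.95, edgeR adjusted p = 0.229). The 10 of 12 elongation factor genes had medians of 0.01, -0.10 and -0.04. The 40 of 78 genes for proteins of the mitochondrial ribosome had medians of 0.12, 0.17 and 0.19, with 3, 2 and 2 higher at an unadjusted p under 0.05 (6.56%, 6.05% and 3.34% of all genes) and none lower. The 17 of 38 ribosome biogenesis genes had medians of 0.13, 0.14 and 0.25. With all 12 libraries these 2 lists had the opposite sign to the members, as initiation factors did against ECKO and SMKO. Without DKO 2 the members' median against CTRL was 0.01, and medians of the lists without it are not given here. The 8 of 27 genes of RNA polymerases I and III had medians of -0.09, -0.08 and -0.23.

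Lists tied to the control of these genes were read in the same way. The 23 of 25 other TOP mRNAs tested had medians of -0.24, -0.15 and -0.08 in DKO against CTRL, ECKO and SMKO. Of them 18, 19 and 15 were below 0 (48.3%, 48.2% and 48.1% of all genes). The TOP list shares genes with the initiation and elongation factor lists, and its values without DKO 2 are not given here. Hnrnpa1, an RNA-binding protein of the TOP list, had a log2 difference of -0.57 from CTRL (edgeR adjusted p = 0.305). The 17 of 25 genes of mTOR signalling and TOP control had medians of -0.10, -0.04 and -0.06. The 6 of 21 stress genes downstream of Atf4 had medians of 0.30, 0.35 and 0.38. Of the p53 targets, 13 of 20 were tested, with medians of 0.25, -0.02 and -0.14. Among them Cdkn1a, the cell cycle inhibitor p21, was at log2 differences of 1.07 (edgeR adjusted p = 0.287), 1.45 (adjusted p = 0.154) and 1.29 (adjusted p = 0.519). The 17 of 18 genes of the signal recognition particle and nascent chain binding had medians of -0.07, 0.13 and 0.19.

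In the authors' deposited table, 1 of the 78 members had a p under 0.05 in DKO against CTRL (6.94% of the genes with a value did), Rpl36a with a fold change of -1.47 (p = 0.0413). The authors' deposited table had none against ECKO (6.45% of genes). Against SMKO (4.27% of genes) the authors' deposited table had 3: Rpl10 with a fold change of 4.13 (p = 0.0491), Rps27 with -2.02 (p = 0.0199) and Rpl36a with -1.48 (p = 0.0479).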

How the data were processed

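The deposited table holds whole-number total counts and TPM for each of 12 libraries, per the file headers. TPM divides each count by a gene length and was computed by the authors. The table also gives, per the file headers, a fold change and a p-value for DKO set against CTRL, ECKO and SMKO by the authors, whose test and adjustment the sources used here do not name. The genome build was GRCm39 per the submitters' processing notes. Aligner, counting program and annotation are named in none of the sources used here. The library kit does not keep strand. Shared windows and copies were found with 75-base windows of GENCODE vM21 transcripts (GRCm38), an older build, so coordinates are those of GRCm38.

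Counts were scaled by TMM, filtered by filterByExpr (minimum count 10) and fitted with edgeR 4.0.16 (R 4.3.3) over all 12 libraries, with 8 residual degrees of freedom. The 6296 genes tested held 93.1% of counts. Depth slopes used group plus the log10 total (7 residual degrees of freedom). The standard error was taken as the size of the log2 fold change divided by the square root of F. DESeq2 1.42.0 and limma 3.58.1 (voom) were alternatives, and the scripts were tested on simulated data. Counts of 0 were read as up to 3 counts of the pooled total, for counting error only. Replicates differed by more than sampling noise (chi-square per degree of freedom 3.28 to 7.96), so none were merged.

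Named were the 5 members with the smallest p in each comparison, the 5 highest and lowest by TPM, the listed subgroups, and up to 3 genes of other lists. The members and lists were chosen with earlier results of these data known. Values of 1 member and of 1 other subunit gene are not reported here.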

Additional observations from a re-analysis of the deposited data

How the results depend on the processing

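Alternative counts of called members are given without the share of all genes called in each setting. Of 203 such counts, 198 were within 1.5 times the one reported. The others were 2 in DKO against ECKO when only those groups were fitted (Rpl9 -0.78, edgeR adjusted p = 0.0405; Rps27 -0.89, adjusted p = 0.0343), 1 in SMKO against ECKO and 1 over the 4 groups with no low-count filter (Rpl10 -3.36, edgeR adjusted p = 0.0169 between SMKO and ECKO), and, for the depth slope, 4 with library totals alone and 1 with DESeq2. Library totals alone, without TMM, gave median log2 fold changes of -0.27 in DKO against CTRL, -0.42 against ECKO, -0.080 in SMKO against CTRL (reversed) and -0.22 in SMKO against ECKO, where the medians of all genes were -0.15, -0.13, -0.21 and -0.20. Leaving out 1 library at a time, the members' median ran from -0.17 to 0.01 in DKO against CTRL, -0.32 to -0.14 against ECKO and -0.26 to -0.061 against SMKO, each highest without DKO 2; the cause was not tested. It ran from 0.00 to 0.11 in SMKO against CTRL, 0.081 to 0.16 in ECKO against CTRL, -0.11 to -0.0090 in SMKO against ECKO, -0.39 to -0.26 for the interaction and -0.13 to 0.12 for the depth slope. The median depth slope also turned positive with library totals alone (0.50), with no low-count filter (0.24) and with the replicate number as a block (0.098); the cause was not tested. Summing copies turned Rpl10 in ECKO against CTRL to -0.084. Shares without mitochondrial genes in the total were 4.36%, 4.85%, 4.53% and 3.83% (CTRL, ECKO, SMKO, DKO), and their correlation with depth was 0.044. The large to small subunit ratio from TPM was 1.24, 1.31, 1.33 and 1.39. The highest member was 154 times the lowest by median TPM and 77.5 times by counts per kilobase, the latter chosen after seeing the data. With the replicate number as a block, the medians were -0.10, -0.27 and -0.22 in DKO against CTRL, ECKO and SMKO, and no member's call changed. The numbers were not taken as pairs, since same-numbered libraries correlated at -0.14 to 0.18 and not every pair was above 0.1. As a hint from the data, 10 of 12 libraries correlated best with one of their own number. With 3 libraries a group and a median standard error of 0.26, small shifts of single members could not be resolved, and shifts several times that error did not pass either.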
